A study of Homo sapiens with 6 samples.

Results

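ERK feedback and output genes are genes whose transcripts rise when the kinase ERK is active, and most of their products act back on the same pathway. The 10 genes described here were DUSP4, DUSP5, DUSP6, SPRY2, SPRY4, SPRED1, SPRED2, ETV4, ETV5 and PHLDA1. They were taken by symbol from the probe sets with exactly 1 gene symbol, so they are 10 of 18417 genes measured, and each of the 10 had a single probe set. The arrays came from MCF10A, an established non-tumorigenic line of human mammary epithelium, modified with ErbB2 according to the sample titles; ErbB2 is a growth factor receptor that feeds into ERK. There were 3 arrays labelled RB-deficient (title tag miRB) and 3 labelled RB-proficient (title tag miNS), all from cells kept for 7 days in 3-D culture within reconstituted basement membrane. RB is the retinoblastoma protein, which restrains E2F transcription factors. By the titles both groups carry ErbB2, and how it was introduced, and whether each group is 1 clone or a pool, is not stated in the labels. The supplements that the growth protocol names are horse serum, insulin, cholera toxin and hydrocortisone, with antibiotics and glutamine, and EGF is not among those named.

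In the ERK pathway a receptor such as EGFR or ErbB2 loads RAS with GTP, RAS recruits RAF, RAF activates MEK, and MEK phosphorylates ERK, which acts on ETS-family and other transcription factors. DUSP4, DUSP5 and DUSP6 are phosphatases that remove phosphate from MAP kinases. Sprouty proteins (SPRY) and SPRED proteins hold back the steps between receptor, RAS and RAF. In epithelial cells these transcripts are widely used as a readout of ERK output, since they follow the pathway within hours.

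None of the 10 genes passed the test between the arrays labelled RB-deficient and RB-proficient. SPRED2 was the 1 gene whose 3 values in the arrays labelled RB-deficient all lay below the 3 RB-proficient values, with a 3.56-fold lower mean. SPRY2 had the largest mean difference, 4.32-fold lower, but its values overlapped between the groups and 1 array at the floor set most of it. DUSP4, ETV4 and ETV5 had higher means in the arrays labelled RB-deficient, 1.43-fold to 1.46-fold, with overlapping values.

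All values are log2 of the authors' linear intensities after scaling of the arrays to 1 shared median, with a floor of 1 before the logarithm, so that 0 is the floor. Differences are RB-deficient minus RB-proficient on this log2 scale, and p-values are from limma's moderated test over all 18417 genes with Benjamini-Hochberg adjustment, with n = 3 per group and a threshold of 0.05. Of all genes, 1 passed that threshold (0.00543%), FN1, which encodes fibronectin and is named here after its values were seen, at a lower level in the arrays labelled RB-deficient, and 0 passed at a higher level. By limma at an unadjusted p under 0.05, 10.8% of genes were lower and 2.85% higher. The groups did not overlap for 15.3% of genes with lower values and 7.12% with higher values. Nothing in the labels says that the arrays came from separate cultures, so the p-values cover only the spread among these arrays, part of which may be technical. In such whole-culture RNA, fewer cells that express a gene and less of its RNA per cell cannot be told apart.

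The arrays labelled RB-deficient differed more from each other (Pearson's r across genes of 0.67 to 0.75) than the RB-proficient arrays did (0.90 to 0.92). RB1, which encodes RB, gave 3.45, 5.09 and 6.04 in RB-deficient-labelled arrays 1 to 3, against 7.01, 5.77 and 7.65 in the RB-proficient arrays. RB1 thus overlapped between the groups (adjusted p 0.302), and each direction below rests on the labels. The reference genes ACTB (difference −1.92, SE 0.50) and GAPDH (−1.23, SE 0.47) were lower in each array labelled RB-deficient than in any RB-proficient array, and the median difference over all genes was −0.21. Of 12 markers of mammary epithelium 8 were measured, and 7 of these lay above the gene median on each array. Their summed scaled intensity was 3016 to 3631 in the RB-deficient-labelled arrays and 4250 to 6622 in the RB-proficient arrays, and 7 of the 8 had lower means (median difference −1.30). Of the markers of other cell types, 0 of 8 for fibroblasts, 2 of 6 for endothelium and 1 of 7 for leukocytes lay above the gene median on each array. The fibroblast sum was 159.5 to 291.1 in the RB-deficient-labelled arrays and 168.9 to 224.5 in the RB-proficient arrays, with 4 of 8 lower (median difference −0.24) and COL3A1 and THY1 at the floor in at least 1 array. The endothelial sum was 373.5 to 478.8 in the RB-deficient-labelled arrays and 534.7 to 661.4 in the RB-proficient arrays, with 3 of 6 lower (median difference −0.18). The leukocyte sum was 241.1 to 273.9 in the RB-deficient-labelled arrays and 331.1 to 470.4 in the RB-proficient arrays, though 4 of 7 had higher means (median difference 0.46). The part of these shifts in the values below was not tested.

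Promoter windows are shown for SPRED2, whose values separated the groups, for its paralog SPRED1, whose values did not, and for SPRY2, which had the largest difference. Each is the 250 bases before the most upstream gene start that RefSeq lists for the gene, 5′ to 3′ on the gene's strand, in build GRCh38.p14. The SPRED2 window is chr2:65432600-65432849 on the minus strand, the SPRED1 window is chr15:38252586-38252835 on the plus strand and the SPRY2 window is chr13:80341127-80341376 on the minus strand. Capitals mark a match to CCGGAA, the core that many ETS factors bind.
SPRED2: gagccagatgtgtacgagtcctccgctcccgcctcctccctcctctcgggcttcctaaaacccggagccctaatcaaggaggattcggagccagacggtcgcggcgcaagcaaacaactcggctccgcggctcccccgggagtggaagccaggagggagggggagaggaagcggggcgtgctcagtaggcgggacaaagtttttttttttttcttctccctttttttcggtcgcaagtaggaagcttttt
SPRED1: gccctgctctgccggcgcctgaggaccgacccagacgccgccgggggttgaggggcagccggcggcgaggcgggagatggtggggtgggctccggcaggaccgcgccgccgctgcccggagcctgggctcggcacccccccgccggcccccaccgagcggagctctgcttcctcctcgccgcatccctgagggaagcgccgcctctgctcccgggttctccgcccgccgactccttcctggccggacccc
SPRY2: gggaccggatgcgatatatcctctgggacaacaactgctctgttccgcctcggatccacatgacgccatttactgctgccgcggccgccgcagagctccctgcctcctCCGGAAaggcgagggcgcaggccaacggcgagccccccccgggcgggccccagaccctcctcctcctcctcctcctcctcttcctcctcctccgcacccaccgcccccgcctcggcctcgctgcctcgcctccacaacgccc
RefSeq windows were found for 6 of the 10 genes (DUSP6, SPRY2, SPRY4, SPRED1, SPRED2 and PHLDA1). The SPRY4 window, chr5:142324248-142324497 on the minus strand, lies inside the gene, which RefSeq places at 142310430 to 142325021. It is thus not before the most upstream SPRY4 start. On either strand, CCGGAA was in 2 of the 6, those of SPRY2 (142 bases before the start) and PHLDA1 (89 bases before it), and in 14.5% of all 35116 windows of this length. The other motifs searched on both strands were TGANTCA (AP-1), any of TTTCCCGC, TTTGGCGC, TTTCGCGC and TTTGCCGC (E2F), and the CArG box bound by SRF. Each of these 3 was in 0 of the 6 windows, and they were in 6.57%, 2.79% and 1.16% of all windows. The windows of SPRED1 and SPRED2 differed in base composition, with 78.4% and 58.8% G and C. A match is a run of letters and not a bound site.

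The sprouty genes encode inhibitors that are made in response to growth factors and damp receptor signalling to ERK. SPRY2, probe set 7972217, gave 0, 3.56 and 4.59 in RB-deficient-labelled arrays 1 to 3, against 5.09, 5.08 and 4.32 in RB-proficient arrays 1 to 3. Array RB-deficient 1 was at the floor, with a deposited intensity of 0.262, and array RB-deficient 3 lay above RB-proficient 3, so the groups overlapped. RB-deficient 1 had 4.71% of all genes at the floor, and the other 5 arrays had 0.326% to 1.62%. The SPRY2 difference was −2.11 (SE 1.02, 95% interval −4.41 to 0.19, limma's adjusted p 0.395). Without the array labelled RB-deficient 1 it was −0.75, and with a floor of 16 in place of 1 it was −0.63.

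SPRY4, probe set 8114797, gave 2.70, 4.80 and 3.57 in the RB-deficient-labelled arrays, against 4.25, 4.37 and 4.44 in the RB-proficient arrays. The RB-proficient values lay close together (SD 0.096), while array RB-deficient 2 had the highest and RB-deficient 1 the lowest SPRY4 value of the 6. Its difference of −0.67 (SE 0.60, 95% interval −2.02 to 0.69) did not pass (limma's adjusted p 0.642). Both sprouty genes thus had their lowest value in the array labelled RB-deficient 1.

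The SPRED proteins carry a sprouty-related domain and bring the RAS GTPase-activating protein neurofibromin to the membrane, where RAS is turned off. SPRED2, probe set 8052689, gave 4.13, 2.57 and 4.04 in RB-deficient-labelled arrays 1 to 3, against 4.57, 5.87 and 5.80 in RB-proficient arrays 1 to 3. The nearest values of the groups were 4.13 in RB-deficient 1 and 4.57 in RB-proficient 1, and SPRED2 was lowest in RB-deficient 2. The difference was −1.83 (SE 0.62, 95% interval −3.23 to −0.44), and limma gave an unadjusted p of 0.0155 and an adjusted p of 0.273. By unadjusted p SPRED2 ranked 1043 of 18417 genes, and relative to the median of all genes its difference was −1.62. SPRED2 was dim in the RB-deficient-labelled arrays, with scaled intensities of 17.5, 5.94 and 16.4. Its difference was −1.36 with a floor of 16 in place of 1, and −1.05 with an offset of 16 added before log2.

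SPRED1, probe set 7982564, gave 6.22, 4.50 and 4.96 in the RB-deficient-labelled arrays, against 4.88, 4.93 and 6.19 in the RB-proficient arrays. The mean was 5.23 ± 0.89 in the RB-deficient-labelled arrays and 5.33 ± 0.74 in the RB-proficient arrays (SD, n = 3 each), and each group held 1 high array. The SPRED1 difference was −0.11 (SE 0.63, 95% interval −1.51 to 1.30, limma's adjusted p 0.950). The interval spans differences of over 2-fold in either direction.

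**Figure D1:**
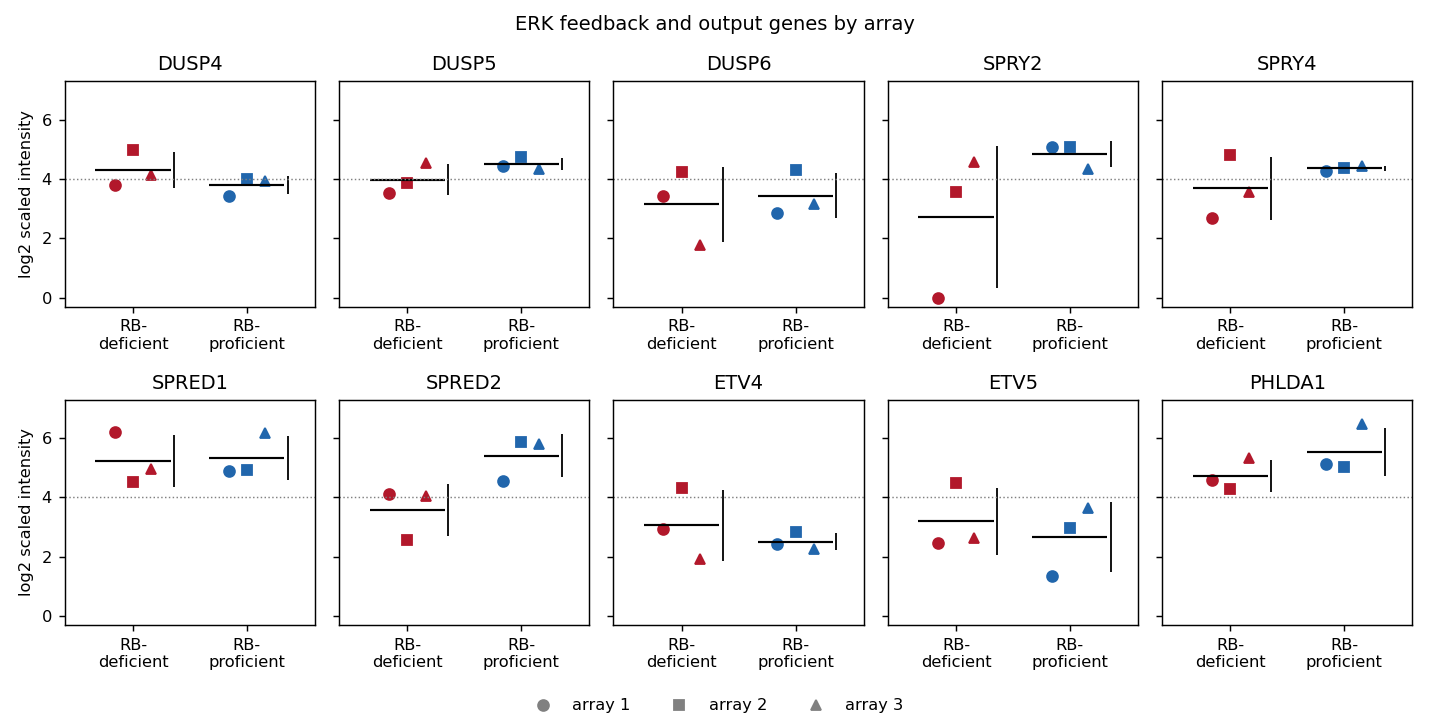
Log2 scaled intensity of the 10 genes, with the arrays labelled RB-deficient (red) left of the RB-proficient arrays (blue), the symbol giving the array number, the horizontal line the mean and the vertical line ± 1 SD (n = 3 per group). SPRED2 is the 1 gene whose groups do not overlap, SPRY2 is at the floor of 0 in RB-deficient 1, and the dotted line marks 4, the level of the alternative floor of 16.

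DUSP6 encodes a cytoplasmic phosphatase with a strong preference for ERK and is among the best known ERK feedback genes. DUSP6, probe set 7965335, gave 3.44, 4.24 and 1.77 in the RB-deficient-labelled arrays, against 2.85, 4.30 and 3.16 in the RB-proficient arrays. In both groups array 2 was the highest, and RB-deficient 3 was the lowest of the 6. The DUSP6 difference was −0.28 (SE 0.71, 95% interval −1.89 to 1.32, limma's adjusted p 0.876). It was 0.41 without the array labelled RB-deficient 3 and 0.15 without RB-proficient 2, so its sign rested on single arrays. DUSP6 was also dim, with a scaled intensity below 16 in 4 of 6 arrays, and its detection above background is not known.

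DUSP4 and DUSP5 encode nuclear phosphatases, of which DUSP5 acts on ERK with high selectivity. DUSP4, probe set 8150076, gave 3.80, 4.98 and 4.13 in the RB-deficient-labelled arrays, against 3.43, 4.01 and 3.91 in the RB-proficient arrays. The 2 highest DUSP4 values were in RB-deficient 2 and 3, while RB-deficient 1 lay within the RB-proficient range. The difference of 0.51 (SE 0.52, 95% interval −0.65 to 1.68) did not pass (limma's adjusted p 0.677).

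DUSP5, probe set 7930413, gave 3.52, 3.85 and 4.55 in the RB-deficient-labelled arrays, against 4.44, 4.74 and 4.32 in the RB-proficient arrays. Arrays RB-deficient 1 and 2 lay below each RB-proficient array, and RB-deficient 3 lay among them. The DUSP5 difference was −0.53 (SE 0.50, 95% interval −1.65 to 0.59, limma's adjusted p 0.656), which is opposite in sign to that of DUSP4. The difference between DUSP4 and DUSP5 was compared within arrays, as given below.

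ETV4 and ETV5 encode ETS transcription factors of the PEA3 group, whose transcripts are induced through ERK and whose proteins act on its target genes. ETV4, probe set 8015806, gave 2.94, 4.32 and 1.93 in the RB-deficient-labelled arrays, against 2.44, 2.83 and 2.26 in the RB-proficient arrays. Array RB-deficient 2 was the highest and RB-deficient 3 the lowest of the 6. The ETV4 difference of 0.55 (SE 0.65, 95% interval −0.90 to 2.00, limma's adjusted p 0.721) was −0.075 without the array labelled RB-deficient 2.

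ETV5, probe set 8092578, gave 2.46, 4.50 and 2.63 in the RB-deficient-labelled arrays, against 1.36, 2.98 and 3.65 in the RB-proficient arrays. RB-deficient 2 was again the highest, and the other 2 arrays labelled RB-deficient lay inside the RB-proficient range. Its difference was 0.53 (SE 0.76, 95% interval −1.17 to 2.24, limma's adjusted p 0.772), and −0.12 without the array labelled RB-deficient 2 or without RB-proficient 1. Both ETV genes were dim, with a scaled intensity below 16 in 5 of 6 arrays.

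PHLDA1 encodes a pleckstrin homology-like protein that is induced by growth factors and whose transcript is used in scores of ERK output. PHLDA1, probe set 7965040, gave 4.58, 4.29 and 5.33 in the RB-deficient-labelled arrays, against 5.12, 5.03 and 6.47 in the RB-proficient arrays. Arrays RB-deficient 1 and 2 lay below each RB-proficient array, RB-deficient 3 lay above 2 of them, and array 3 was the highest of each group. The difference of −0.81 (SE 0.58, 95% interval −2.11 to 0.50) did not pass (limma's adjusted p 0.561).

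**Figure D2:**
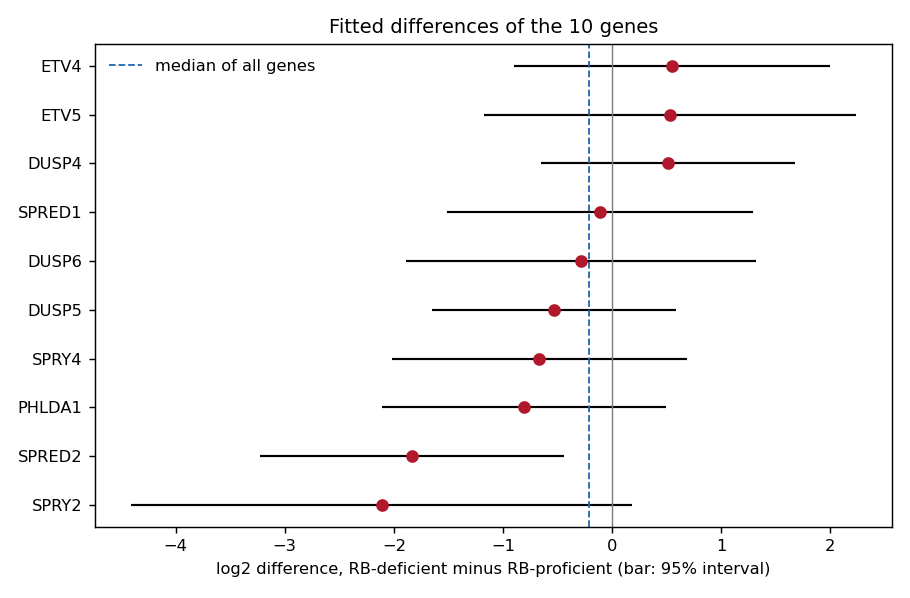
Fitted log2 difference of each gene, RB-deficient minus RB-proficient (dot), with its 95% interval (bar, n = 3 per group, not adjusted for the number of genes). The interval of SPRED2 (−3.23 to −0.44) excludes 0 and the other 9 include it, and the dashed line is the median of all genes, −0.21.

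Across the 10 genes, 7 had a lower and 3 a higher mean in the arrays labelled RB-deficient, where 58.6% of all genes had a lower mean. The median difference of the 10 was −0.41, against −0.21 over all genes. At an unadjusted p under 0.05, limma gave 1 of 10 lower (SPRED2), where the share of all genes was 10.8%, and 0 of 10 higher, where it was 2.85%. The values did not overlap for 1 of 10 with lower and 0 of 10 with higher values, against 15.3% and 7.12% of all genes. These counts of 10 genes are near those shares of all genes, so they give no result about the group. The smallest adjusted p of the 10 over all 17 alternative settings was 0.157, for SPRED2 with an offset of 16 added before log2, so 0 of 10 passed in any of them.

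The 10 genes differed in which array was highest and which was lowest. The array labelled RB-deficient 2 held the highest of the 6 values for DUSP4, SPRY4, ETV4 and ETV5, and the lowest for SPRED1, SPRED2 and PHLDA1. Over all genes that array was the highest for 20.7% and the lowest for 30.0%. RB-deficient 1 was lowest for DUSP5, SPRY2 and SPRY4 and highest for SPRED1, and over all genes it was lowest for 28.0% and highest for 25.9%. RB-deficient 3 was lowest for DUSP6 and ETV4 and highest for none, against 14.9% and 11.5% of all genes. Among the RB-proficient arrays, array 2 was highest for DUSP5, DUSP6 and SPRED2, and arrays 2 and 3 were lowest for none of the 10.

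The spread was larger within the arrays labelled RB-deficient. The SD was larger there than in the RB-proficient arrays for 8 of the 10 genes, and for 81.0% of all genes. The median SD of the 10 was 0.97 in the RB-deficient-labelled arrays and 0.59 in the RB-proficient arrays. Over all genes these medians were 0.84 and 0.40. SPRY2 varied most, with an SD of 2.41 in the RB-deficient-labelled arrays and 0.44 in the RB-proficient arrays. The exceptions were PHLDA1, with SDs of 0.54 in the RB-deficient-labelled and 0.81 in the RB-proficient arrays, and ETV5, with 1.13 in the RB-deficient-labelled and 1.18 in the RB-proficient arrays.

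**Figure D3:**
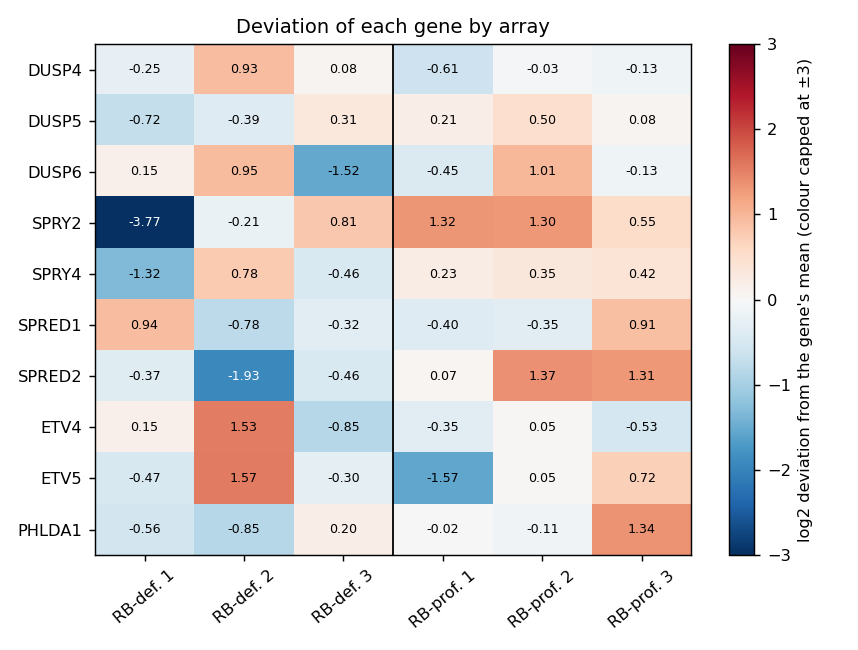
Log2 deviation of each gene (rows) from its own mean over the 6 arrays, with the arrays labelled RB-deficient in the left columns and the RB-proficient arrays in the right columns. The RB-deficient 2 column holds high values for ETV4, ETV5, DUSP4 and SPRY4 beside the lowest SPRED2 value, and SPRY2 in RB-deficient 1 lies below the range of the colours.

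The log2 ratio of 2 probe sets on the same array does not depend on how arrays are scaled, except at the floor, so genes of a family were also compared in this way, in 6 pairs chosen after the values were seen. SPRED1 minus SPRED2 was 2.09, 1.93 and 0.92 in RB-deficient-labelled arrays 1 to 3, against 0.32, −0.93 and 0.38 in RB-proficient arrays 1 to 3. The groups did not overlap, and their mean log2 ratios differed by 1.72. The two-sided exact permutation test gave p = 0.10, the smallest that 3 against 3 arrays allow, and 0.60 after adjustment over the 6 pairs. As 0.10 lies above the threshold used here, no pair could pass whatever its values, so this test cannot decide whether any ratio differed. DUSP4 minus DUSP5 was 0.28, 1.13 and −0.42 in the RB-deficient-labelled arrays, against −1.01, −0.73 and −0.41 in the RB-proficient arrays. That pair overlapped by the array labelled RB-deficient 3 (exact p = 0.20). SPRY2 minus SPRY4 was −2.70, −1.24 and 1.02 in the RB-deficient-labelled arrays, against 0.84, 0.71 and −0.12 in the RB-proficient arrays. The first of these rests on SPRY2 at the floor, and the exact permutation test gave p = 0.40. DUSP4 minus DUSP6 differed by 0.80 (exact p = 0.50), DUSP5 minus DUSP6 by −0.24 (exact p = 0.90) and ETV4 minus ETV5 by 0.018 (exact p = 1.0), each with overlapping values.

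Upstream of these genes, 7 of 13 measured ERBB receptors and ligands had lower means in arrays labelled RB-deficient, against 58.6% of all genes, and 0 of 13 passed. ERBB2 gave 3.99, 3.67 and 4.19 in the RB-deficient-labelled arrays, against 4.87, 5.48 and 5.41 in the RB-proficient arrays, with no overlap (difference −1.31, SE 0.48, limma's adjusted p 0.288). The ERBB2 values of the RB-deficient-labelled arrays and of RB-proficient 1 lay below 4.93, the median of all genes. RB-proficient 2 and 3 lay above it, and the gene medians of RB-proficient arrays 1 to 3 were 5.09, 5.04 and 5.21. By the titles no array came from cells without ErbB2, so whether either group had a raised ERBB2 transcript cannot be told. EGFR gave 5.24, 4.09 and 4.53 in the RB-deficient-labelled arrays, against 5.99, 5.35 and 5.48 in the RB-proficient arrays, with no overlap (difference −0.99, SE 0.52, adjusted p 0.431). ERBB3, the kinase-impaired partner of ErbB2, gave 0.34, 2.36 and 5.20 in the RB-deficient-labelled arrays, against 5.14, 5.86 and 5.56 in the RB-proficient arrays, with a difference of −2.89 (SE 1.03, adjusted p 0.282). Its RB-deficient 3 value lay within the RB-proficient range, and the ERBB3 difference was −1.74 without RB-deficient 1 and −1.12 with a floor of 16. ERBB4 was the receptor with a higher mean in the arrays labelled RB-deficient (0.85, SE 0.50, adjusted p 0.481), with no overlap. At an unadjusted p under 0.05, 2 of the 13 were lower and 0 higher, where 10.8% and 2.85% of all genes were, and the list median was −0.26. The values did not overlap for 3 of the 13 with lower values and for 1 with higher values, against 15.3% and 7.12% of all genes.

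The core of the cascade between receptor and transcription factors was measured for 23 of 29 listed genes, and 18 of these had lower means in the arrays labelled RB-deficient, against 58.6% of all genes. Of the 23, 0 passed adjusted over all genes, and at an unadjusted p under 0.05 limma gave 6 lower and 0 higher, where 10.8% and 2.85% of all genes were. The values did not overlap for 5 of the 23, all lower, against 15.3% of all genes, and the list median was −0.48. HRAS, a RAS GTPase, gave 4.85, 3.91 and 5.36 in the RB-deficient-labelled arrays, against 5.99, 6.84 and 7.76 in the RB-proficient arrays (difference −2.16, SE 0.62, limma's adjusted p 0.231). SRF, a transcription factor that ERK reaches through ternary complex factors, gave 3.90, 3.35 and 4.37 in the RB-deficient-labelled arrays, against 6.04, 5.28 and 5.92 in the RB-proficient arrays (difference −1.87, SE 0.51, adjusted p 0.214). The groups were apart for both genes. KSR1, a scaffold for RAF, MEK and ERK, had a 3.99-fold lower mean (log2 SE 0.71, adjusted p 0.282), and its log2 difference was −1.15 without RB-deficient 1 and −0.96 with a floor of 16. ARAF, a RAF kinase, had a difference of −1.59 (SE 0.52, adjusted p 0.258), and neither gene overlapped.

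Other genes known to respond to ERK were measured for 32 of 34 listed. Of the 32, 20 had a lower mean in the arrays labelled RB-deficient, against 58.6% of all genes, and 0 passed. At an unadjusted p under 0.05 limma gave 2 lower and 0 higher, where 10.8% and 2.85% of all genes were, and the list median was −0.38. The immediate early gene IER2 gave 3.32, 5.11 and 6.05 in the RB-deficient-labelled arrays, against 6.89, 6.59 and 7.07 in the RB-proficient arrays (difference −2.02, SE 0.69, limma's adjusted p 0.274), and −1.27 without RB-deficient 1. KLF6, a zinc finger factor, differed by −1.73 (SE 0.63, adjusted p 0.287), JUN, an AP-1 subunit, by −1.43 (SE 0.67, adjusted p 0.384) and IER5 by −1.02 (SE 0.49, adjusted p 0.387). JUN differed by −0.70 without RB-proficient 1, and KLF6 by −0.87 with a floor of 16. The values did not overlap for 4 of the 32 with lower values, which are these 4, and for 1 with higher values, against 15.3% and 7.12% of all genes. The gene with higher values was ARC, an activity-regulated cytoskeletal gene named after its values were seen, with a difference of 0.61 (SE 0.46, adjusted p 0.577). TGFA, EREG and HBEGF stand in both this list and that of the ERBB ligands.

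Of the 7 other MAP kinase phosphatases, 6 had a lower mean in the arrays labelled RB-deficient, against 58.6% of all genes. By limma 0 of the 7 passed and 0 were at an unadjusted p under 0.05, where 10.8% of all genes were lower and 2.85% higher. DUSP1, a nuclear phosphatase that acts mainly on p38 and JNK, gave 5.29, 3.55 and 0 in the RB-deficient-labelled arrays, against 4.82, 5.89 and 5.70 in the RB-proficient arrays (difference −2.53, SE 1.13, limma's adjusted p 0.365). Array RB-deficient 3 was at the floor for DUSP1, and RB-deficient 1 was within the RB-proficient range. The DUSP1 difference was −1.06 without RB-deficient 3 and −1.04 with a floor of 16. DUSP8, a phosphatase of JNK and p38, was higher in each array labelled RB-deficient, at 6.63, 7.45 and 6.06 there against 5.77, 6.02 and 5.49 in the RB-proficient arrays (difference 0.96, SE 0.53, adjusted p 0.456). The values did not overlap for 0 of the 7 with lower values and for 1 with higher values (DUSP8), against 15.3% and 7.12% of all genes. DUSP9 differed by −1.04 (SE 0.61, adjusted p 0.477) and DUSP16 by −0.97 (SE 0.74, adjusted p 0.586), both with overlap. DUSP8 differed by 0.59 and DUSP9 by −0.49 without RB-deficient 2, and DUSP16 by −0.29 without RB-deficient 1.

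**Figure D4:**
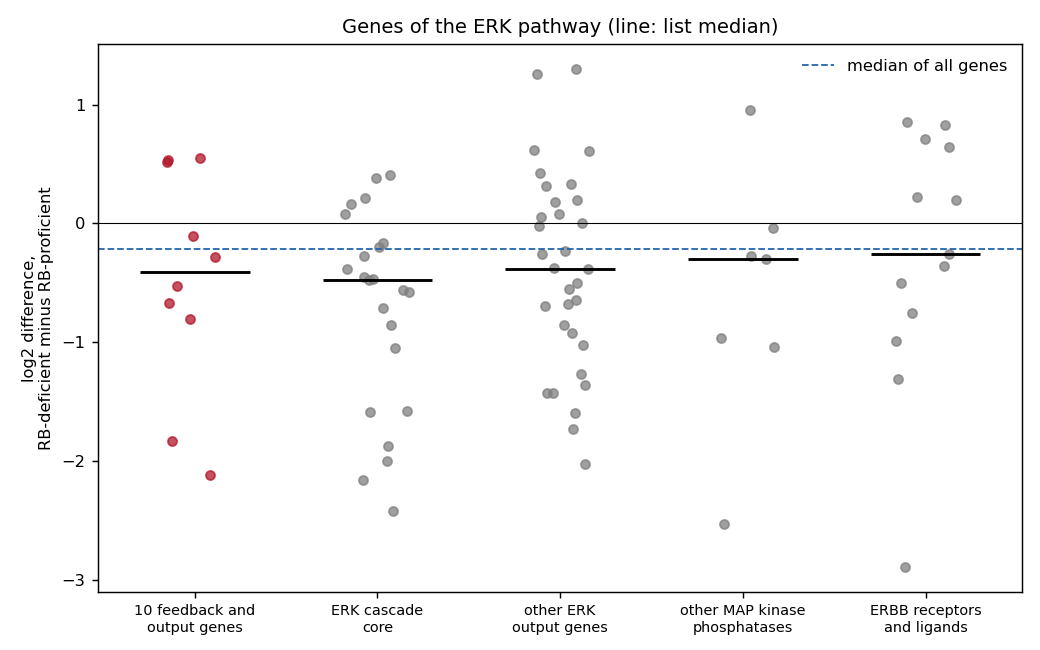
Fitted log2 difference of each measured gene, RB-deficient minus RB-proficient (dots), for the 10 feedback and output genes (red, left) and for 4 other lists of the pathway (grey), with the list median as a line and the median of all genes (−0.21) dashed. The list medians lie between −0.48 (cascade core) and −0.26 (ERBB receptors and ligands), and that of the 10 genes is −0.41.

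The genes whose values over the 6 arrays were most like the mean of the 10 centred profiles, among 8906 other genes with a mean of at least 5, were TIMP3, an inhibitor of metalloproteinases, PIAS1, a SUMO ligase, and PTOV1. Pearson's r with that mean was 0.97 for each of them over 6 arrays, which share their scaling and group labels, so the likeness is a description.

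The sign of the difference was the same under the 17 alternative settings for DUSP4, which stayed higher (0.18 to 0.77), and for SPRED2, which stayed lower (−2.26 to −1.05). PHLDA1 (−1.11 to −0.20) and SPRY4 (−1.22 to −0.087) also stayed lower in all 17, as did SPRY2 (−3.05 to −0.24) in the 16 that kept it. SPRED2 was at an unadjusted p under 0.05 in 14 of the 17 settings, and not without RB-proficient array 2 or 3 or without both arrays labelled RB-deficient 1 and 2. The other 5 genes changed sign in at least 1 setting.

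**Figure D5:**
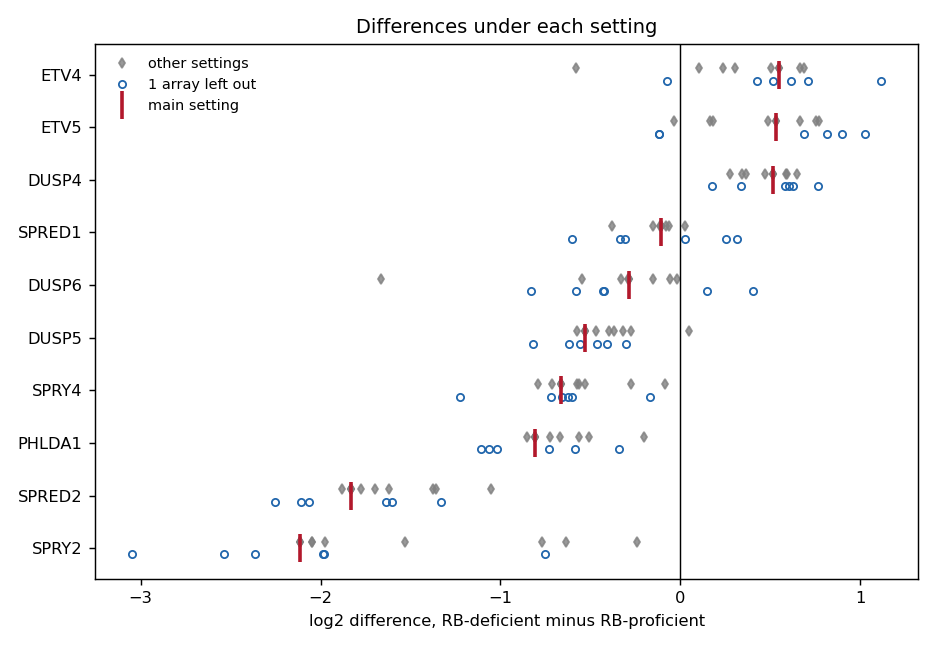
Log2 difference of each gene, RB-deficient minus RB-proficient, with the main setting (red bar), with 1 array left out (blue circles) and under the other settings (grey diamonds). SPRED2, SPRY2, PHLDA1 and SPRY4 stay below 0 and DUSP4 above it, and the other 5 genes fall on both sides.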

How the data were processed

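Per the labels, total RNA from cells lysed together with the matrix was amplified with the WT-Ovation Pico system, biotin-labelled and hybridised, 1 sample per array. The deposited values are linear intensities per probe set, made by the authors with Affymetrix Expression Console 1.1, per the submitters' processing notes. No source used here gives the summarisation, background correction, normalization or build. Detection calls were not used.

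Arrays were scaled to a median of 26.8, floored at 1 and converted to log2. Of 33297 probe sets, 19460 had 1 symbol in the platform annotation, giving 18417 genes, and the brightest probe set of a gene was used. Groups were compared with limma 3.58.1 (R 4.3.3; lmFit, eBayes, two-sided, no covariates), tested on simulated data. The labels give no batch.

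The 10 genes, the lists and the tests were chosen with earlier results of these data known. Named genes were the 10, RB1, ERBB2, EGFR, ACTB, GAPDH, the 4 of each pathway list with the smallest p, and the 3 most alike in pattern. The markers were checked as 4 lists. Alternatives covered normalization, floors, a filter, probe set means, variance models, a replicate block and arrays left out.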

Additional observations from a re-analysis of the deposited data

How the results depend on the processing

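In all 17 alternative settings 0 of the 10 genes passed. Over all genes, the count that passed lower, 1 with the main settings, was 48 with a floor of 16, 186 with an offset of 16, 61 with trend and robust, and 0 without the dimmest 25% of genes or without the arrays labelled RB-deficient 1 and 2 (a lone array, assumed to vary like the others). Higher calls, 0 with the main settings, were 10 with the floor and 7 with the offset. With single arrays left out these counts ran from 0 to 4 lower, those at an unadjusted p under 0.05 from 984 to 2907 lower and 247 to 984 higher, and those with no overlap from 3295 to 4835 lower and 1650 to 2851 higher. Without RB-deficient 1 and 2, 6924 genes were lower and 4702 higher with no overlap. Of the 10 genes, 2 were at an unadjusted p under 0.05 with trend and robust and with the replicate block, and 0 to 2 with single arrays left out. Over all 18417 genes, limma gave 2416 lower and 391 higher at that p with trend and robust, against 1996 and 525 in the main setting. With the replicate block it gave 2021 lower and 403 higher. Of the 10, 1 to 4 were lower and 0 to 1 higher with no overlap when single arrays were left out, and 4 and 1 without RB-deficient 1 and 2. Their median difference of −0.41 was −0.10 with the floor of 16, to which values under it are raised, and −0.57 to −0.29 with single arrays left out.

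Signs turned for DUSP5 (0.049), ETV4 (−0.58), ETV5 (−0.033) and DUSP16 (0.085) without RB-deficient 1 and 2, for DUSP6 without RB-deficient 3 (0.41) or RB-proficient 2 (0.15), for ETV4 (−0.075) and ETV5 (−0.12) without RB-deficient 2, for ETV5 without RB-proficient 1 (−0.12), and for SPRED1 with centring (0.026) and without RB-deficient 2 (0.25), RB-deficient 3 (0.026) or RB-proficient 3 (0.32). With single arrays left out DUSP6 ran from −0.83 to 0.41, SPRED1 from −0.60 to 0.32, ETV4 from −0.075 to 1.12 and ETV5 from −0.12 to 1.03. The cause was not tested. After centring, 32.5% of the calls before adjustment were on the higher side, against 20.8% in the main setting. ACTB passed with the offset of 16 and with trend and robust. Same-numbered arrays did not deviate together (r of −0.12, 0.07 and −0.11). This does not show a pairing by replicate number, but with 3 noisy arrays per group it cannot exclude a pairing. With the replicate block 0 of the 10 genes passed after adjustment. The unadjusted p of SPRY2 by limma was 0.033 with the block and 0.067 in the main setting. Levels near 4 and below are dim, and detection above background is not known.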
